A study of Mus musculus with 4 samples.

Results

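The clustered core and linker histone genes are the subject here: every gene of the deposited tables whose symbol starts with Hist1h, Hist2h, Hist3h or Hist4h. The rule uses symbols alone and no measured value. It found 67 of 32285 genes, 6 for the linker histone H1, 18 for H2A, 18 for H2B, 12 for H3 and 13 for H4. They were counted in 4 single-cell RNA libraries of mouse ovary, 1 library per treatment. The control received PBS or saline, the doxorubicin group 3 mg/kg of doxorubicin (an anthracycline that damages DNA), the doxorubicin+AMH group 3 mg/kg of doxorubicin with 0.75 mg/kg of recombinant human AMH (anti-Müllerian hormone), and the AMH group 0.75 mg/kg of AMH alone. Mice were treated from postnatal day 25 with 2 weekly doses of doxorubicin, and tissue was taken 4 hours after the last dose. Each library pooled dissociated ovaries of 5 animals, so animals cannot be separated and no treatment difference has a replicate check. The labels used here give no strain.

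Core histones H2A, H2B, H3 and H4 form the protein spool around which DNA is wound, and H1 binds the linker DNA between spools. Most genes of the histone clusters are known to be transcribed in S phase, when new DNA is packed, and their mRNAs are the known case of animal mRNAs that end in a conserved stem-loop, bound by SLBP, instead of a poly(A) tail. Some members are also known to give polyadenylated transcripts, and replacement histones, encoded elsewhere, are made outside S phase. In the growing ovary, granulosa cells are the dividing somatic cells of the follicle.

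The stem-loop sequences are shown first, since the library kit captures poly(A) ends and the members differ in how their annotated transcripts end. In the GENCODE vM21 annotation of GRCm38, 54 members lie on chromosome 13, 10 on chromosome 3, 2 on chromosome 11 and 1 on chromosome 6. The pattern GGNNCTTTTCAGNNCC (sense strand) stood within 100 bases after the stop codon in 34 of 67 members, and in 36 of all 21830 genes with a coding transcript (0.165%), of which 35 are members when any transcript is counted. By family, 3 H1, 10 H2A, 7 H2B, 5 H3 and 9 H4 members held it. Some annotated transcripts, that of Hist1h1b among them, end at the stop codon, so the search says nothing of their true end. Capitals mark the pattern in the members that the results turn on.
Hist1h2ap: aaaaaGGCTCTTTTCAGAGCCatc
Hist1h2ae: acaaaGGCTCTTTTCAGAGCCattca
Hist1h4d: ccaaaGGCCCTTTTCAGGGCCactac
Hist1h1e: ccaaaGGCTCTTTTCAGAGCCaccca
Hist1h1c: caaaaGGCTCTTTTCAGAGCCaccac
Hist3h2a: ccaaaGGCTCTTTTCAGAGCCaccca
Hist4h4: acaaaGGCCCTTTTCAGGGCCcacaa
They lie at chr13:21833026-21833049 (minus strand), chr13:23570663-23570688 (minus), chr13:23581945-23581970 (plus), chr13:23621777-23621802 (minus), chr13:23739507-23739532 (plus), chr11:58955167-58955192 (plus) and chr6:136803993-136804018 (minus), in that order. The H2A and H1 genes share the letters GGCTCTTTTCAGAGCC, and both H4 genes have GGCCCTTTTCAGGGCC.

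A poly(A) signal, AATAAA or ATTAAA within the last 50 bases of the annotated transcript, is the other kind of end. It is shown in capitals for 3 members that were lower in S-state cells (below) and for 1 that was higher.
Hist1h1c: gtgtatgcttctAATAAAaagcgtttagtt
Hist3h2a: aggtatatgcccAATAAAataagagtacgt
Hist4h4: tagaggagatgaAATAAAtac
Hist1h2ae: cccagcttctccAATAAAtgggtcaatttt
The sites are chr13:23740330-23740359 (plus), chr11:58956785-58956814 (plus), chr6:136801553-136801573 (minus) and chr13:23570527-23570556 (minus). Hist1h1c, Hist3h2a, Hist4h4 and Hist1h2ae hold both kinds of end, with the poly(A) signal beyond the stem-loop, as do Hist1h2be, Hist1h4h, Hist1h4j, Hist2h3c1 and Hist3h2ba.

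Promoters are shown for 2 members that were higher in cycling cells and 2 that were lower in S-state cells. RefSeq (GRCm38.p6) start sites were matched for 60 of 67 members by their newer symbols, and the 250 bases before the start were searched on both strands for 4 motifs that do not overlap one another. CCAAT stood in 49 of the 60 (81.7%, against 33.9% of all 32851 promoters in the table) and TATAAA in 29 (48.3% against 12.4%). The octamer ATTTGCAT stood in 13 (21.7% against 1.60%), 7 of 17 H2A and 6 of 15 H2B promoters and no other. AAACACA, a motif added after the sequences were seen, stood in 9 (15% against 6.25%), 5 of 6 H1 promoters among them. The last 120 bases before the start follow, with motifs on either strand in capitals.
Hist1h1b: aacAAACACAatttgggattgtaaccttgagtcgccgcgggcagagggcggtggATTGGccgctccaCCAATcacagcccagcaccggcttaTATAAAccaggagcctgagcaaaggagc
Hist1h1e: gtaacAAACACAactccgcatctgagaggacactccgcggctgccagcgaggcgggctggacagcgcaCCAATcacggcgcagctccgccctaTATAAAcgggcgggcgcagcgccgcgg
Hist1h1c: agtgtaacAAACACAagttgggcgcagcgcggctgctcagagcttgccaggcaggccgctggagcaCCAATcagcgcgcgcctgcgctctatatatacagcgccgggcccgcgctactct
Hist3h2a: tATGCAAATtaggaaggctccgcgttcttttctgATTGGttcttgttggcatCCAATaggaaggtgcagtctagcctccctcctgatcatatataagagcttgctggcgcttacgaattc
They are chr13:21780626-21780745 (minus), chr13:23622559-23622678 (minus), chr13:23738687-23738806 (plus) and chr11:58954565-58954684 (plus). The 3 H1 promoters share AAACACA and CCAAT. The exact letters TATAAA stand in those of Hist1h1b and Hist1h1e but not in those of Hist1h1c and Hist3h2a, which hold the similar run tatata. A match is a run of letters, not a shown binding site.

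The libraries held 138647495 to 178279122 UMIs (molecular tags, each counting a captured transcript once) in 7141 to 9478 cells, with medians of 9834.5 to 13575 UMIs per cell, lowest in AMH. After filters 28440 of 33639 cells were kept, and 82.4 to 89.3% of the kept cells of a library passed the marker gate of a class. A gate from a score is a range: 304 of 8298 granulosa-like and 429 of 10136 stroma-like cells lay just inside it, and 276 and 441 just outside. Of 1692 smooth muscle and pericyte-like cells 338 lay just inside, a larger part, and 428 just outside. These cells held a median of 16.2 stroma marker UMIs per 10000, against 166.6 of their own markers. In granulosa-like cells granulosa markers held a median of 40.1 UMIs per 10000, theca markers 3.00 and stroma markers 0.237. Cycling states were set from S and G2/M gene lists that hold no histone gene. Pairs of libraries shared 11 to 24 cell barcodes. In erythroid-like cells, which should make few histone transcripts, members took 0.0110, 0.0115, 0.0138 and 0.0340% of the UMIs in control, doxorubicin, doxorubicin+AMH and AMH, at medians of 3976.5 to 6064 UMIs per cell. Erythroid markers held a median of 8781 of 10000 UMIs there, and histone transcripts of these cells themselves cannot be told apart from free RNA. These shares are thus no measure of free RNA and are not set against other classes.

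The members took 398154 of 629224711 UMIs (0.0633%), and 66 of 67 had at least 1 UMI. The 3 highest by UMIs, Hist1h1b, Hist1h2bc and Hist1h2ap, held 41.4% of them, the 10 highest 73.1%, and 25 members had under 1000 UMIs each. By family, H1 took 35.8% of the member UMIs, H2A 23.8%, H2B 17.3%, H4 16.8% and H3 6.24%. A UMI can fall on a near-identical copy: 32 members have at least 50% of their 50-base stretches in another gene, and 21 overlap a gene on the opposite strand. Hist1h2ap is the extreme among the abundant members, with 93.1% of its stretches in Hist1h2ao, while Hist1h1b and Hist1h1a have none in any other gene.

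In S-state granulosa-like cells most histone genes stood far above non-cycling granulosa-like cells, and 4 stood below them. The linker histone gene Hist1h1b rose by 2.96, the H2A gene Hist1h2ap by 3.85 and the H4 gene Hist1h4d by 1.63, all on the log2 scale. Hist3h2a (H2A), Hist1h2bc (H2B), Hist1h1c (H1) and Hist4h4 (H4) fell, the last 3 with calls that some alternatives below did not keep. The test was edgeR's quasi-likelihood test over the 4 libraries with Benjamini-Hochberg adjustment over 15982 genes, and a call is an adjusted p under 0.05. Of the 59 members that passed the count filter, 48 were higher and 4 lower, where 52.6% of all genes were called, 26.2% higher and 26.4% lower. The median log2 change of the 59 was 1.65, and that of all genes -0.01. A member can pass the filter through its high group alone, so these counts support nothing by themselves. Among the 37 members with at least 10 UMIs in each non-cycling sum, 29 were higher and 4 lower, with a median of 1.46. The 4 libraries each had another treatment, and library was a term of the model. The p-values thus measure how far the state difference varied between these libraries, not the spread of levels between them. S-state cells were deeper, with median UMIs per cell of 25098 to 33881 against 17887.5 to 21826, and the part of depth in the results was not tested. Levels here and below are those of transcripts captured by poly(A) ends, and the part of capture was not tested. The 8 members not tested were Hist2h3c2, Hist2h2aa2, Hist3h2ba, Hist1h2bq, Hist1h2ao, Hist1h1t, Hist1h2ba and Hist1h2aa.

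Among linker histones, Hist1h1b (chr13:21779883-21780625, minus strand) was at 47.8, 55.2, 49.4 and 35.9 CPM (UMIs of the gene per 1000000 UMIs of the sum) in non-cycling cells of control, doxorubicin, doxorubicin+AMH and AMH, at 329, 384, 463 and 251 CPM in S state and at 518, 462, 596 and 356 CPM in G2/M state. Both cycling states lay above every non-cycling value, while S and G2/M values overlapped. Its log2 change was 2.96 ± 0.07 (SE; edgeR adjusted p = 1.14e-15) in S. Hist1h1a, a further H1 gene of replicating cells, went from 2.06 ± 0.38 CPM (SD, n = 4 libraries) to 22.5 ± 6.84 CPM, a log2 change of 3.48 ± 0.15 (edgeR adjusted p = 1.75e-12). Hist1h1e was at 21.8, 25.9, 21.8 and 17.0 CPM in non-cycling cells and at 48.9, 61.7, 73.0 and 45.9 CPM in S state, again with no overlap, and its log2 change was 1.46 ± 0.09 (edgeR adjusted p = 1.63e-10). Hist1h1e overlaps Hist1h2be on the same strand, so their UMIs may be mixed. Of the 5 tested H1 genes 4 were higher in S and 1, Hist1h1c, lower.

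Of the 8 tested H2A genes with at least 10 UMIs in each non-cycling sum, 6 were higher and 1 lower in S (all genes 26.2% higher and 26.4% lower, for each family here). They ranged from -1.68 to 3.96 on the log2 scale, with a median of 2.00. Hist1h2ap (chr13:21833026-21833507, minus strand) was at 8.37, 3.82, 7.02 and 16.4 CPM in non-cycling cells, in the same order of libraries, and at 114, 67.5, 125 and 177 CPM in S. In both states the doxorubicin library was lowest and the AMH library highest, and the states did not overlap. Its log2 change was 3.85 ± 0.10 (edgeR adjusted p = 2.59e-15). Hist1h2ae stood at 7.39, 9.06, 9.28 and 11.1 CPM in non-cycling cells and at 62.4, 79.5, 106 and 84.7 CPM in S, with a log2 change of 3.22 ± 0.12 (edgeR adjusted p = 1.18e-13). Hist1h2ab went from 1.05 ± 0.34 to 15.7 ± 1.73 CPM and Hist1h2af from 0.492 ± 0.25 to 12.1 ± 3.84 CPM (SD, n = 4). Hist2h2ac, on chromosome 3, rose less, from 5.00 ± 0.50 to 15.6 ± 3.33 CPM, by 1.68 ± 0.14 on the log2 scale (edgeR adjusted p = 9.14e-09).

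H3 had the fewest UMIs of the families. Its member Hist1h3b was at 0.140, 0.0509, 0.179 and 0.184 CPM in non-cycling cells, which is 3, 1, 3 and 4 UMIs, and at 2.58, 3.72, 4.52 and 4.44 CPM in S. Hist1h3b, Hist1h3c and Hist1h2af had under 10 UMIs in at least 1 non-cycling sum, so their fitted changes support nothing here. Hist1h3c went from 0.967 ± 0.47 to 13.1 ± 2.42 CPM and Hist1h3e from 8.44 ± 0.68 to 19.3 ± 2.15 CPM (SD, n = 4), log2 changes of 3.81 and 1.24. Of the 6 tested H3 genes with at least 10 UMIs in each non-cycling sum, 5 were higher and 0 lower in S, against the same shares, and the median was 1.38. Hist1h3i changed by 1.75 ± 0.17 (edgeR adjusted p = 8.77e-08). The most abundant H4 gene, Hist1h4d (chr13:23581598-23582735, plus strand), was at 19.4, 20.2, 19.0 and 20.3 CPM in non-cycling cells and at 54.8, 63.6, 71.4 and 47.9 CPM in S, with a log2 change of 1.63 ± 0.09 (edgeR adjusted p = 2.91e-11). Non-cycling values of Hist1h4d were almost level across libraries, and every S value lay above them. Hist1h4h changed by 0.43 ± 0.15 (edgeR adjusted p = 0.0227), but its S value lay above its non-cycling value in 2 of 4 libraries. Control had 11.9 CPM in S against 12.4 CPM, and AMH 14.95 against 14.98 CPM. Without the doxorubicin+AMH library its change was 0.16 (edgeR adjusted p = 0.299), with a state threshold of 3 UMIs 0.25 (edgeR adjusted p = 0.111) and without the library term 0.45 (edgeR adjusted p = 0.0864). Of the 9 tested H4 genes with at least 10 UMIs in each non-cycling sum, 7 were higher and 1 lower, against the same shares, with a median of 0.84.

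Of the 9 tested H2B genes with at least 10 UMIs in each non-cycling sum, 7 were higher in S and 1, the most abundant, lower (all genes 26.2% and 26.4%), with a median of 1.43. Hist1h2bc, whose annotated transcript is spliced and holds no stem-loop pattern near its stop codon, was at 30.7, 31.4, 33.7 and 33.6 CPM in non-cycling cells and at 19.7, 18.4, 24.2 and 30.7 CPM in S. It was lower in S in each library, and the S value of AMH lay just under the lowest non-cycling value. Its log2 change was -0.43 ± 0.09 (edgeR adjusted p = 0.00059), and -0.09 (edgeR adjusted p = 0.34) with a state threshold of 3 UMIs. Hist1h2be, the next by UMIs, rose from 4.66 ± 0.67 to 7.93 ± 0.79 CPM (SD, n = 4), a log2 change of 0.82 ± 0.14. Hist2h2bb rose by 1.38 ± 0.29 (edgeR adjusted p = 0.000582).

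**Figure D1:**
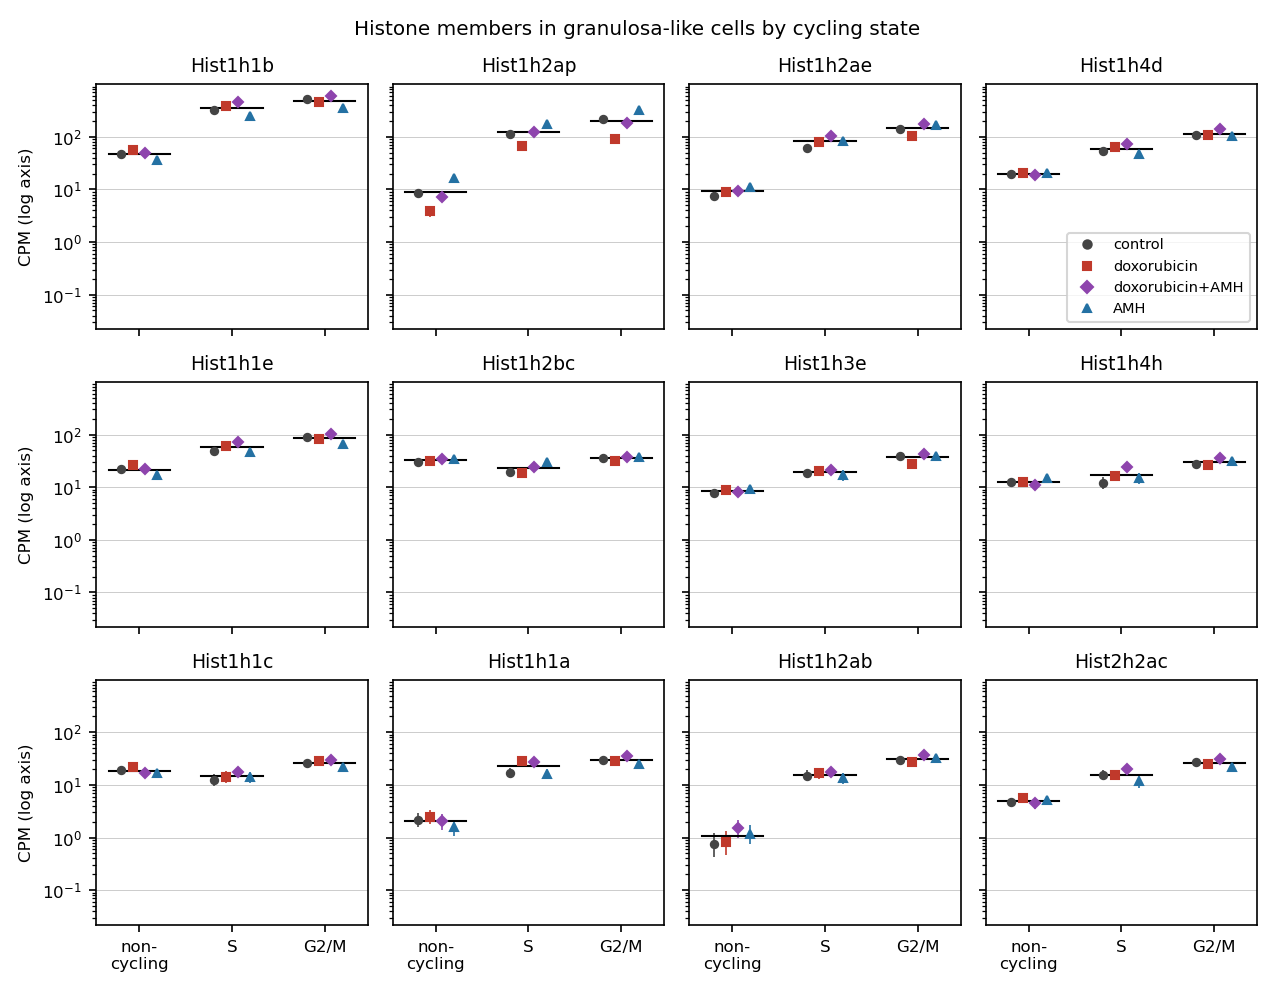
CPM (log axis) of the 12 histone genes with the highest mean in granulosa-like cells, by cycling state. Points are the 4 libraries with 95% counting intervals and bars their mean. Hist1h1b and Hist1h2ap lie apart between non-cycling and S cells, while Hist1h2bc and Hist1h1c do not rise in S.

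The other 3 members that fell in S were Hist3h2a, Hist4h4 and Hist1h1c. Hist3h2a, an H2A gene on chromosome 11 (chr11:58954685-58956830, plus strand), was at 8.84, 9.82, 8.69 and 7.56 CPM in non-cycling cells and at 3.38, 2.06, 1.97 and 3.03 CPM in S, with no overlap and a log2 change of -1.68 ± 0.20 (edgeR adjusted p = 9.51e-07). It overlaps Trim17 on the same strand, and 31.5% of its 50-base stretches are in that gene. Hist4h4, an H4 gene alone on chromosome 6 (chr6:136801553-136804415, minus strand), was at 4.12, 4.27, 3.27 and 3.41 CPM and at 2.58, 2.48, 2.56 and 1.41 CPM in S, a log2 change of -0.68 ± 0.23 (edgeR adjusted p = 0.0196). Without the AMH, control or doxorubicin library its change was -0.55, -0.67 and -0.62 (edgeR adjusted p = 0.074, 0.0682 and 0.0646). With doublets kept it was -0.49 (edgeR adjusted p = 0.051). Hist1h1c was at 18.9, 21.9, 17.0 and 16.6 CPM and at 12.5, 14.2, 17.3 and 14.1 CPM in S, where the doxorubicin+AMH library lay within the non-cycling range (log2 change -0.30 ± 0.11, edgeR adjusted p = 0.0288). Without control or doxorubicin its change was -0.20 and -0.18 (edgeR adjusted p = 0.237 and 0.278), without the library term the edgeR adjusted p was 0.0949, and DESeq2 gave an adjusted p of 0.0545. The 4 members that fell had annotated transcripts with a median of 1290 bases after the stop codon (742 to 2515), 3 with a stem-loop pattern and 3 with a poly(A) signal. The 48 that rose had a median of 84.5 bases (0 to 4931), 24 with a stem-loop pattern and 7 with a poly(A) signal. Among matched promoters the exact letters TATAAA stood in 25 of 44 of those that rose and in 0 of 3 of those that fell. CCAAT stood in 37 of 44 and 2 of 3. With 4 members in the lower group these are descriptions of the sequences printed above.

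In G2/M-state granulosa-like cells histone genes stood higher still. Against non-cycling cells 55 of the 59 tested members were higher and 1, Hist3h2a, lower, where 58.1% of all genes were called (27.5% higher and 30.6% lower). The median log2 change of members was 2.50 and that of all genes -0.03. Among the 37 members with 10 or more UMIs in each non-cycling sum, 33 were higher and 1 lower, with a median of 2.03. Hist1h2ap reached 218, 90.8, 184 and 321 CPM (log2 change 4.56 ± 0.09, edgeR adjusted p = 2.42e-17). Hist1h2bc was at 35.6, 30.9, 36.9 and 37.2 CPM, which overlaps its non-cycling range, and its change was 0.17 ± 0.07 (edgeR adjusted p = 0.0405), a call lost in 7 alternatives (adjusted p = 0.0506 to 0.324, edgeR or DESeq2). Hist4h4 did not pass the test (0.08 ± 0.15, edgeR adjusted p = 0.671), and without the AMH library its value was -0.03.

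Set directly against G2/M, S-state cells had 0 members higher and 38 lower of 59, where 19.6% of all genes were called (9.80% higher and 9.79% lower). A member can pass through G2/M alone, so the count of 38 supports nothing by itself. The differences are those of transcripts captured by poly(A) ends, and histone mRNA without a poly(A) tail was not measured. Of the 34 with at least 10 UMIs in each S sum, 29 were lower, with a median of -0.79. The median of the 59 was -0.78 and that of all genes 0.01, and 47 members were higher in G2/M than in S in all 4 libraries. Without the library term in the model 24 were called, all lower. Hist1h1b and Hist1h2ap were not, at changes of -0.43 and -0.74 (edgeR adjusted p = 0.218 and 0.34). Hist1h1b was lower in S by 0.44 ± 0.06 on the log2 scale (edgeR adjusted p = 0.000109), Hist1h2ap by 0.71 ± 0.08 (edgeR adjusted p = 4.57e-06) and Hist1h3c by 1.14 ± 0.14 (edgeR adjusted p = 1.43e-05). The smallest of the called H1 differences was that of Hist1h1a (-0.40 ± 0.11, edgeR adjusted p = 0.0142), which was lost without the AMH, control or doxorubicin+AMH library (edgeR adjusted p = 0.0732, 0.113 and 0.0541).

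**Figure D2:**
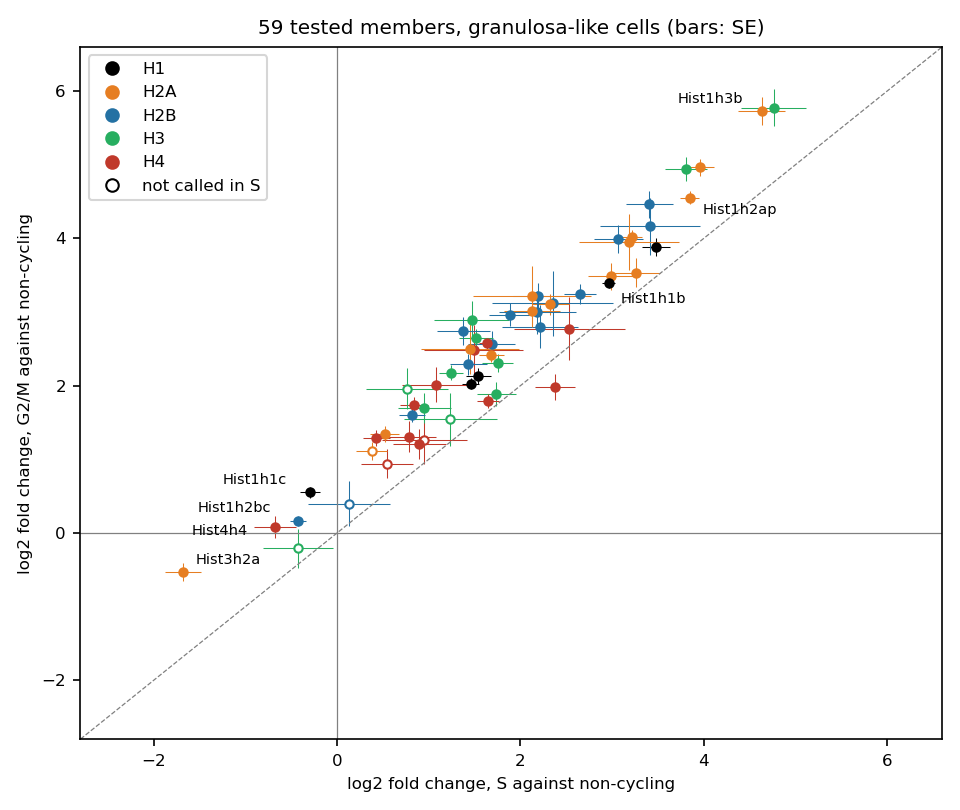
Fitted log2 fold change of each tested member in granulosa-like cells, S against non-cycling (x axis) and G2/M against non-cycling (y axis), coloured by histone family, with SE bars and a dashed line of equal change. Both axes share the same non-cycling sums. Points lie mostly above the line. Hist3h2a, Hist1h2bc, Hist1h1c and Hist4h4, called lower in S, lie left of 0, as does Hist2h3c1, which was not called.

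The state rule gives a cell to G2/M when its G2/M list UMIs reach the threshold and are not below its S list UMIs, so G2/M-state cells can also hold S list UMIs. A split added after these results were seen separated granulosa-like cells with the S list alone (27 to 39 cells per library), both lists (152 to 217) and the G2/M list alone (61 to 161). A list counted as held from 5 UMIs, and as absent with at most 1. Cycling cells between these limits were left out of the split, so it covers a part of the S-state and G2/M-state cells. Captured histone transcripts peaked in cells that held both lists. The kit captures poly(A) ends, so the timing of histone mRNA without a poly(A) tail was not measured. Summed over all members, the level was 254, 275, 256 and 256 CPM in non-cycling cells, 312, 266, 516 and 424 CPM with the S list alone, 2219, 2035, 2635 and 2255 CPM with both, and 857, 678, 958 and 851 CPM with the G2/M list alone. Cells with both lists lay above each other kind in all 4 libraries. Of 53 tested members 39 were higher and 0 lower with both lists than with the S list alone, where 10.9% of all genes were called (6.70% higher and 4.25% lower), and the median log2 difference was 2.25 (all genes -0.01). Only 6 of the 53 had at least 10 UMIs in each S-list-only sum, so the count of 39 supports nothing by itself. Of these 6, Hist1h1b, Hist1h1e, Hist1h2ae, Hist1h2ap and Hist1h4d were higher and Hist1h2bc was not called. Against the G2/M list alone 44 were higher and 1, Hist1h2bc, lower, where 32.5% of all genes were called (16.2% higher and 16.4% lower), and the median was 1.27 (all genes -0.02). Of the 32 with at least 10 UMIs in each G2/M-list-only sum, 29 were higher and 1 lower.

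Hist1h1b was at 113, 95.2, 169 and 94.8 CPM with the S list alone, at 775, 788, 917 and 606 CPM with both lists and at 232, 185, 267 and 161 CPM with the G2/M list alone. None of the 3 ranges overlapped but for the S-only value of doxorubicin+AMH, which lay within the G2/M-only range. Its log2 difference was 2.76 ± 0.10 (edgeR adjusted p = 6.49e-14) against the S list alone and 1.90 ± 0.08 (edgeR adjusted p = 1.66e-12) against the G2/M list alone. Hist1h2ap was at 17.9, 14.8, 29.9 and 49.6 CPM with the S list alone and at 319, 149, 289 and 490 CPM with both. Hist1h2bc had its highest mean with the G2/M list alone, 44.7 ± 0.65 CPM (SD, n = 4), against 25.7 ± 5.49 CPM with both lists (log2 difference -0.75 ± 0.12, edgeR adjusted p = 3.78e-05) and 24.4 ± 8.88 CPM with the S list alone. Median UMIs per cell were 24017 to 28007 with the S list alone, 28433.5 to 38940 with both and 25581 to 35544 with the G2/M list alone, and the part of depth was not tested.

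**Figure D3:**
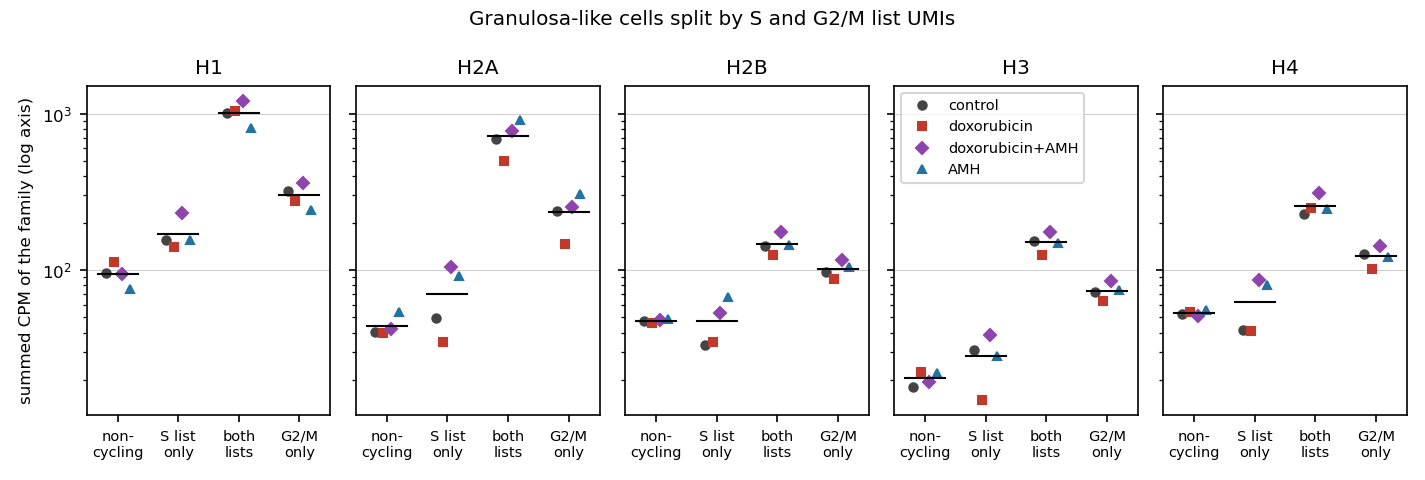
Summed CPM of each histone family (log axis) in granulosa-like cells, per library, with the mean as a bar. Cells are non-cycling (at most 1 UMI of each list) or hold the S list alone, both lists or the G2/M list alone. In each family the 4 libraries are highest in cells with both lists: the H1 sum is 804 to 1204 CPM there and 75.7 to 113 CPM in non-cycling cells.

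Stroma-like cells, the connective cells between follicles, were fitted in the same way, in a fit added after the granulosa results. Differences between the classes in these changes were not tested. In S state (30 to 44 cells per library) 29 of 47 tested members were higher and 5 lower than in non-cycling stroma-like cells, where 38.9% of all genes were called (21.8% higher and 17.1% lower). Of the 35 with at least 10 UMIs in each non-cycling sum, 18 were higher and 5 lower. The lower ones were Hist1h2bc, Hist1h1c, Hist4h4, Hist3h2a and Hist2h4. Hist4h4 was at 19.3, 18.4, 20.6 and 25.1 CPM in non-cycling cells and at 7.72, 11.3, 4.39 and 6.92 CPM in S, with no overlap and a log2 change of -1.46 ± 0.26 (edgeR adjusted p = 0.000245). Hist1h1b was at 159, 736, 278 and 211 CPM in S, with the doxorubicin library far above the other 3, and at 15.8, 23.6, 31.6 and 17.4 CPM in non-cycling cells (log2 change 3.93 ± 0.29, edgeR adjusted p = 1.05e-08). In G2/M state (78 to 163 cells) 43 of 47 were higher and 1, Hist4h4, lower, where 57.4% of all genes were called (29.1% higher and 28.2% lower), and of the same 35 members 31 were higher and 1 lower. There Hist1h1b reached 974, 811, 783 and 719 CPM, above every granulosa-like G2/M value, and the difference between classes was not tested. Counts of members called in S fell to 18, all higher, when the state threshold was 3 UMIs.

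Genes that make, process and place histones were taken from 3 lists. Of 18 histone chaperones tested in granulosa-like cells 14 were higher and 1 lower in S (52.6% of all genes called, 26.2% higher and 26.4% lower), and 15 and 2 in G2/M (58.1%, 27.5% and 30.6%). The 3 highest in S were Mms22l (log2 change 3.27 ± 0.09), Chaf1a (3.15 ± 0.09) and Chaf1b (2.93 ± 0.09), a replication-fork factor and subunits of the CAF-1 complex that sets H3 and H4 on new DNA. Chaf1b was higher in S than in G2/M: it was at 39.5, 45.4, 39.9 and 33.3 CPM in S and at 18.5, 20.9, 15.7 and 15.5 CPM in G2/M (1.18 ± 0.07, edgeR adjusted p = 2.69e-09). Of 22 genes of histone transcription and mRNA processing 14 were higher and 3 lower in S, against the same shares of all genes. The 3 lower ones were Cstf2t (-0.42 ± 0.14), Pou2f1 (-0.27 ± 0.05), which encodes the octamer-binding factor OCT1, and Sympk (-0.24 ± 0.06). Slbp, the stem-loop binding protein, named for its role and not by the naming rule, was at 80.2, 81.1, 79.4 and 74.6 CPM in non-cycling cells and at 136, 139, 148 and 132 CPM in S (0.87 ± 0.04, edgeR adjusted p = 8.34e-12). Of 11 tested replacement histone genes 9 were higher and 2 lower in S, against the same shares, with a median log2 change of 0.47, against 1.46 for the 37 clustered members above.

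Cells outside the cycle were compared by class. Between non-cycling granulosa-like and non-cycling stroma-like cells, of 28 members tested, 3 were higher in granulosa-like cells (Hist1h1b, Hist1h3e and Hist1h3i) and 14 lower, where 55.0% of all genes were called (25.9% higher and 29.1% lower). The share of members called lies near that of all genes. The median was -0.54 for members and -0.02 for all genes. Of the 26 with at least 10 UMIs in each sum of both classes, 3 were higher and 14 lower. The call of Hist1h3i was lost without AMH or doxorubicin+AMH (edgeR adjusted p = 0.0892 and 0.0959). Hist4h4 was at 4.12, 4.27, 3.27 and 3.41 CPM in granulosa-like and at 19.3, 18.4, 20.6 and 25.1 CPM in stroma-like cells, a log2 difference of -2.52 ± 0.25 (edgeR adjusted p = 8.78e-09) with no overlap. Hist2h4, on chromosome 3, differed by -2.09 ± 0.28 (edgeR adjusted p = 1.25e-06), Hist2h2bb by -1.75 ± 0.35 (edgeR adjusted p = 0.000184) and Hist1h2be by -1.68 ± 0.22 (edgeR adjusted p = 5.72e-07). Hist1h1b differed the other way, by 1.08 ± 0.22 (edgeR adjusted p = 0.000184). It was at 47.8, 55.2, 49.4 and 35.9 CPM in granulosa-like and at 15.8, 23.6, 31.6 and 17.4 CPM in stroma-like cells, which did not overlap. The part of free RNA in the low levels was not tested. Median UMIs per cell were 17887.5 to 21826 in granulosa-like and 8428 to 11819 in stroma-like cells.

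Each of 7 classes was then set against the mean of the other 6, over the same 28 members. In granulosa-like cells 6 were higher and 13 lower, where 55.3% of all genes were called (30.1% higher and 25.1% lower). In stroma-like cells 8 were higher and 1 lower (46.8% of all genes called, 28.0% higher and 18.8% lower), in theca-like cells 5 and 4 (51.1%, 30.1% and 21.0%), and in smooth muscle and pericyte-like cells 6 and 3 (43.5%, 26.6% and 17.0%). In surface epithelial-like cells 8 were higher and 1 lower (51.9%, 30.2% and 21.8%), in macrophage-like cells 7 and 5 (54.0%, 22.1% and 31.9%), and in blood endothelial-like cells 2 and 5 (42.7%, 23.0% and 19.8%). Only 2 of the 28, Hist1h1c and Hist1h2bc, had at least 10 UMIs in each sum of all classes, so these counts support nothing by themselves. With classes from clusters 2 members were called in smooth muscle and pericyte-like and 4 in surface epithelial-like cells, and without control 4 in blood endothelial-like cells. In 3 classes a library had as few as 26 to 33 cells outside the cycle: macrophage-like 26 and blood endothelial-like 31 and surface epithelial-like 28.

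Hist1h2bc had the widest range of the abundant members. It was at 309, 162, 183 and 306 CPM in surface epithelial-like cells, the layer around the ovary, with doxorubicin and doxorubicin+AMH low, and at 142, 126, 145 and 148 CPM in smooth muscle and pericyte-like cells. Next came macrophage-like cells at 148, 99.5, 119 and 115 CPM and theca-like cells at 95.7, 124, 88.9 and 105 CPM, whose ranges overlap each other and, for macrophage-like, the smooth muscle range. Stroma-like (61.7 to 74.7 CPM) and blood endothelial-like cells (37.1 to 75.8 CPM) overlapped, and granulosa-like cells were lowest at 30.7 to 33.7 CPM. Surface epithelial-like cells stood above the mean of the others by 1.52 ± 0.13 (edgeR adjusted p = 1.50e-09) and granulosa-like cells below it by -1.79 ± 0.16 (edgeR adjusted p = 2.73e-09). Hist1h1c was also highest in these classes, with means of 79.1 ± 22.0 CPM in surface epithelial-like, 72.5 ± 12.04 CPM in smooth muscle and pericyte-like, 63.0 ± 30.1 CPM in macrophage-like, 33.9 ± 0.82 CPM in stroma-like, 27.3 ± 2.96 CPM in theca-like, 21.0 ± 4.22 CPM in blood endothelial-like and 18.6 ± 2.41 CPM in granulosa-like cells (SD, n = 4). The first 3 ranges overlapped, as did the last pair.

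The H2B gene Hist3h2ba was a rare transcript. It was at 8.91, 2.49, 6.02 and 18.4 CPM in macrophage-like cells, against at most 2.50 CPM in any library of the granulosa-like, theca-like, stroma-like, smooth muscle and pericyte-like and blood endothelial-like classes and 0.739, 8.09, 0 and 1.27 CPM in surface epithelial-like cells. The macrophage-like levels rest on 8, 1, 3 and 14 UMIs, and the surface epithelial-like ones on 3, 11, 0 and 5. Hist3h2ba and Hist2h2be fall outside the naming rule and were chosen after their values were seen, so their levels are given as a description, though Hist2h2be and Hist3h2ba are among the 28 tested members counted above. Hist2h2be, an H2B gene with no shared stretch, was at 5.57, 4.86, 3.31 and 5.65 CPM in theca-like cells, the steroid-making cells around follicles. The granulosa-like mean was 1.06 ± 0.28 CPM (SD, n = 4).

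**Figure D4:**
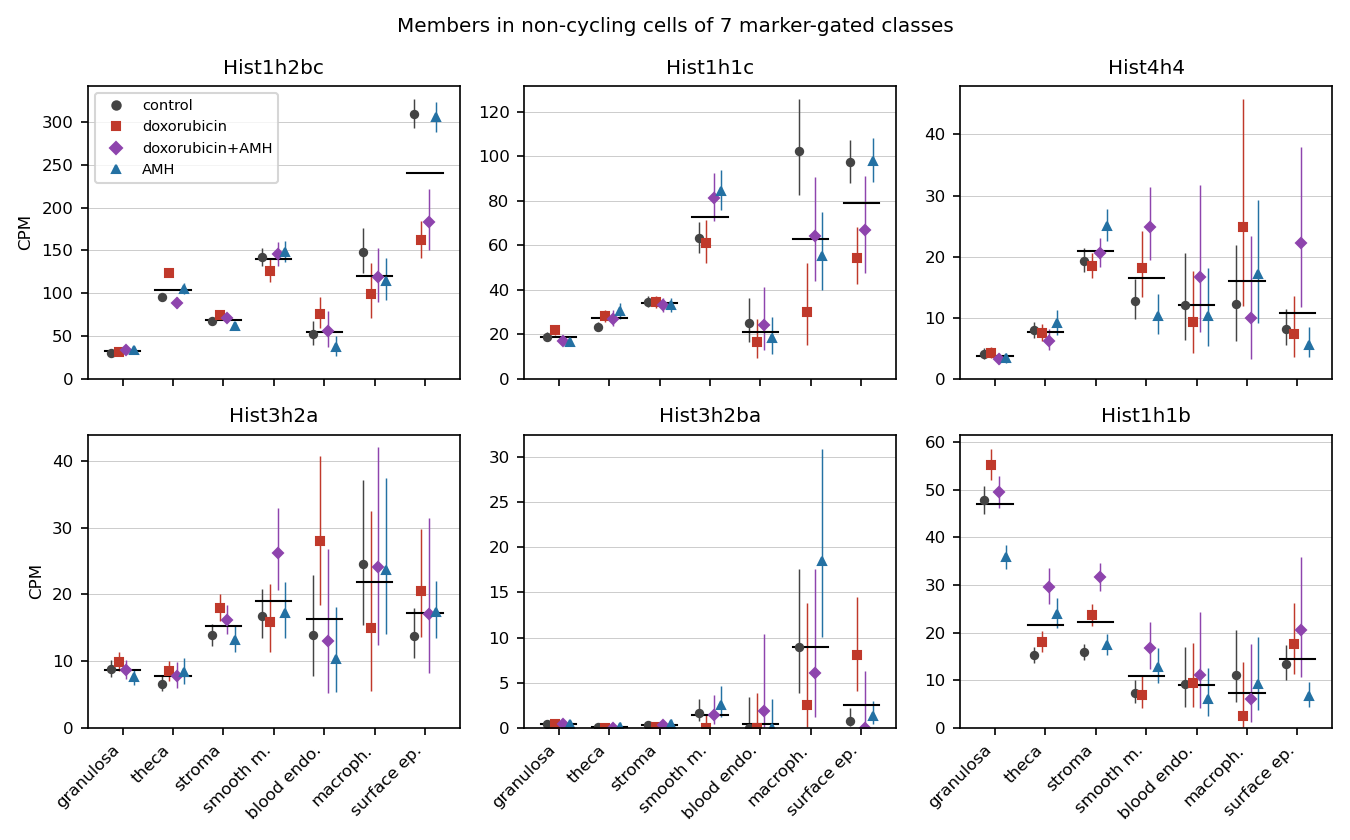
CPM of 6 histone genes in non-cycling cells of 7 marker-gated classes; points are the 4 libraries with 95% counting intervals, bars their mean. Hist1h2bc spans 30.7 to 309 CPM, Hist4h4 is highest on average in stroma-like cells, and Hist1h1b is highest in granulosa-like cells.

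Treatment is compared between single libraries, with log2 ratios on CPM plus a pseudocount of 5 for genes whose mean over the libraries reaches 20 CPM, and no test. A ratio is called past 1.5-fold here only to count it against the same share of all genes. Few members passed the filter: 7 in S-state and 15 in G2/M-state granulosa-like cells, 3 in non-cycling granulosa-like cells, and 6 and 18 in non-cycling and G2/M-state stroma-like cells.

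Hist1h2ap was past 1.5-fold lower in doxorubicin than in control in 3 kinds of cycling cells. In G2/M-state granulosa-like cells control held 218 CPM (95% exact Poisson interval 211 to 225), doxorubicin 90.8, the combination 184 and AMH alone 321. Doxorubicin against control gave a log2 ratio of -1.22, and the combination against AMH alone -0.79, pairs that share no library. AMH alone against control gave 0.55, and the combination against doxorubicin 0.98. In G2/M-state stroma-like cells it was at 404, 176, 269 and 613 CPM, libraries ordered as before, with ratios of -1.18, -1.17, 0.59 and 0.60. In S-state granulosa-like cells the ratios were -0.72, -0.49, 0.61 and 0.84. Both doxorubicin libraries were thus below their partners in all 3 kinds of cell, and both libraries with AMH above theirs. Because 93.1% of its stretches are shared with Hist1h2ao, the gene of origin is uncertain. In G2/M-state granulosa-like cells the other H2A genes past the filter did not fall as far in either doxorubicin pair. There Hist1h2ae was at 139, 105, 172 and 166 CPM, with ratios of -0.38 and 0.05 for both doxorubicin pairs. H2A genes under the filter were not compared.

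Hist1h1b went another way. In G2/M-state granulosa-like cells doxorubicin stood at -0.16 on the log2 scale against control and the combination at 0.73 against AMH alone, while AMH alone stood at -0.53 against control and the combination at 0.36 against doxorubicin. The AMH library was lowest (356 CPM) and the doxorubicin+AMH library highest (596 CPM). In S state AMH was again lowest (251 CPM) and doxorubicin+AMH highest (463 CPM), but doxorubicin (384 CPM) stood above control (329 CPM), a log2 ratio of 0.22. In G2/M-state stroma-like cells control was highest (974 CPM) and AMH lowest (719 CPM). The AMH library also had the fewest UMIs per cell in these sums (27553.5 against 34393.5 to 38754.5 in G2/M-state granulosa-like cells), and its part in the result was not tested.

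**Figure D5:**
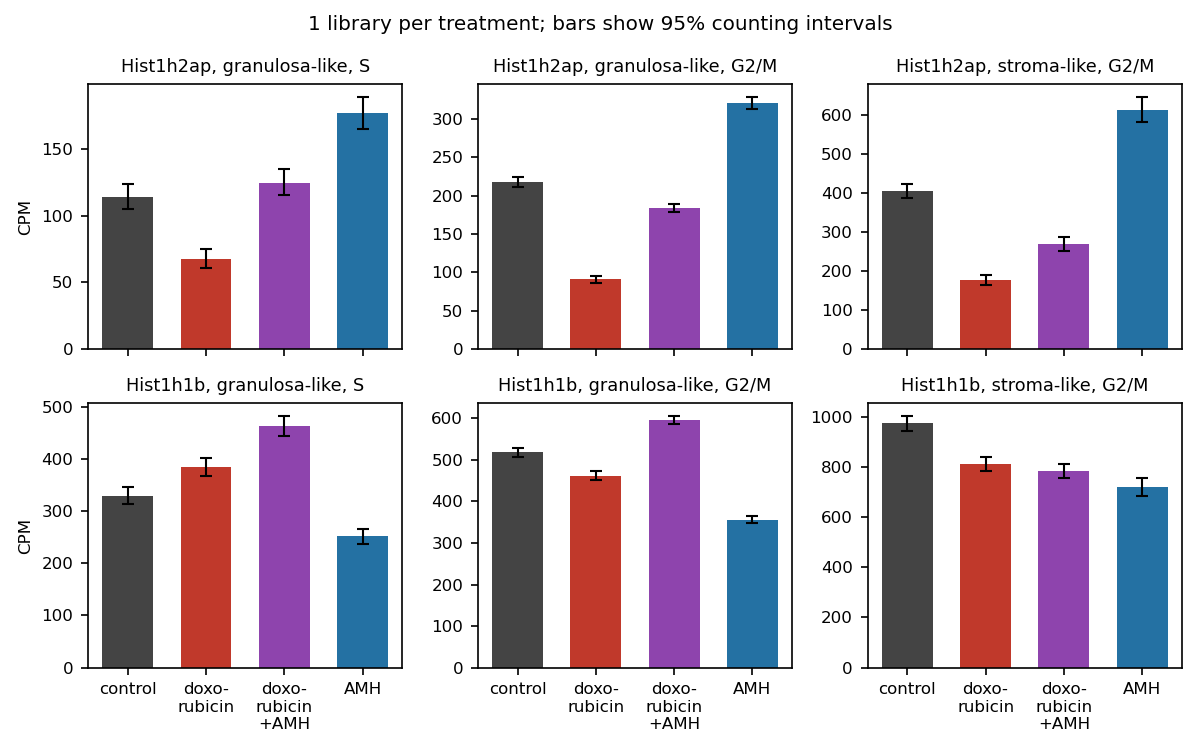
CPM of Hist1h2ap and Hist1h1b in 3 kinds of cycling cells, 1 bar per library with its 95% exact Poisson interval, which covers counting error only. Hist1h2ap is lowest in the doxorubicin library in each panel, and Hist1h1b is lowest in the AMH library.

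The medians over all members past the filter were smaller. For the 15 members in G2/M-state granulosa-like cells, doxorubicin against control had a median log2 ratio of -0.13, with 1 past 1.5-fold, Hist1h2ap (0.645% of all genes). The combination against AMH alone had 0.36, with 4 (0.292%; Hist1h1b, Hist1h2af and Hist1h1e higher and Hist1h2ap lower), AMH alone against control -0.19, with 0 (2.92%), and the combination against doxorubicin 0.31, with 2 (2.70%). The medians of all genes lay between -0.06 and 0.01. In the last of these Hist1h2ap, Hist1h2ae and Hist1h3e had the highest ratios of the 15 (0.98, 0.68 and 0.53). In S state the medians of the 7 members were 0.22, 0.53, -0.03 and 0.27 in the same order, with 2, 3, 1 and 1 past 1.5-fold (backgrounds 0.926, 1.19, 4.15 and 3.92%). With no filter on low values they were 0.10, 0.09, 0.01 and 0.12. In G2/M-state stroma-like cells the medians of the 18 were -0.24, -0.20, -0.21 and -0.11, with 1, 3, 2 and 1 past 1.5-fold (backgrounds 1.32, 2.24, 3.35 and 2.59%). In non-cycling granulosa-like cells 0 of 3 members were past 1.5-fold in any of the 4 ratios (backgrounds 0.275, 0.336, 2.46 and 2.50%), and in non-cycling stroma-like cells 0, 1, 0 and 0 of 6 (backgrounds 0.409, 0.667, 0.985 and 0.819%). With no filter on low values the granulosa-like G2/M medians were -0.07, 0.05, 0.01 and 0.20, so that of AMH alone against control changed sign.

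All members together took 0.0716, 0.0629, 0.0954 and 0.0701% of the UMIs of granulosa-like cells in control, doxorubicin, doxorubicin+AMH and AMH, and 0.0674, 0.0657, 0.0660 and 0.0617% in stroma-like cells. The granulosa-like share followed that of G2/M-state cells, which was 21.2, 18.5, 28.9 and 23.6% of thinned cells, in its lowest and highest library but not between control and AMH. The S-state share was 7.49, 7.56, 7.95 and 6.46%. Within a state, the member sum was 254, 275, 256 and 256 CPM in non-cycling, 897.5, 974.5, 1219 and 920 CPM in S-state and 1616, 1343, 1824 and 1553 CPM in G2/M-state granulosa-like cells. Doxorubicin+AMH was highest in both cycling states. The part of the state shares in the UMI share was not tested.

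The 3 germ line members were at or near 0 in somatic classes. Hist1h1t, the testis-type linker histone, was at 0 to 0.0595 CPM in non-cycling granulosa-like cells and at 0.156, 0.337, 0.122 and 0.213 CPM in non-cycling theca-like cells. Hist1h2aa was at 0 in the non-cycling sums of all 7 classes, and Hist1h2ba had 0 of 629224711 UMIs, which allows up to 0.00477 CPM over all libraries.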

How the data were processed

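Single-cell libraries were made with the 10x 3′ v3.1 chemistry, per the labels' protocols, and the authors deposited raw UMI counts per gene and cell, with Cell Ranger 7.0.0 named as their source in the file headers. Build mm10, R 4.2.0 and Seurat 4.1.0 stand in the submitters' processing notes. The annotation and the counting of intronic reads are not given in the sources used here. Cells under 1000 UMIs or over 20% mitochondrial UMIs were dropped, and the highest Scrublet scores (0.8% per 1000 cells) were removed as doublets. A class needed at least 3 of its markers and a score 1.5 times the next. Cells were thinned to 2000 UMIs, where S or G2/M state needed at least 5 UMIs of its list and non-cycling cells had at most 1 of each. Counts were summed per library, class and state and tested with edgeR 4.0.16 (quasi-likelihood, filterByExpr, TMM), with the library as a term because the same library gives every state and class, and Benjamini-Hochberg adjustment over all genes. Treatment ratios, with 1 library per group, have no test. Named genes were the 12 members with the highest mean CPM, the 2 highest of each family, the 6 highest and 6 lowest changes called in S, the 4 highest and 4 lowest called in granulosa-like against stroma-like cells, the germ line members, and the 3 highest and 3 lowest pathway genes called in S. The members and lists were chosen with earlier results of these data known. Intervals and floors cover counting error only. The scripts were tested on simulated data. Alternatives were DESeq2 1.42.0, other thresholds, pseudocounts and filters, classes from clusters, and leaving out each library.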

Additional observations from a re-analysis of the deposited data

How the results depend on the processing

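Of 953 alternative values of named genes, 905 kept their direction and side of the threshold, 43 lost the call (Hist1h1c, Hist4h4, Hist1h4h and Hist1h2bc in S or G2/M against non-cycling, Hist1h1e and Hist1h3i between granulosa-like and stroma-like cells, and Hist1h1a, Hist1h1b, Hist1h1e, Hist1h2ap, Hist1h3b, Hist1h3i and Hist4h4 between S and G2/M), 3 gained it and 2 changed sign: Hist4h4 in G2/M without AMH (-0.0347, with 0.2493 as the highest value when a library was left out) and Hist2h2ac between granulosa-like and stroma-like cells with classes from clusters (0.12), neither of which passed the test. The fit with no replicate block, that is without the pairing by library, called 24 members between S and G2/M against 38. With a state threshold of 3 UMIs, 18 members were called in S-state stroma-like cells against 34. Classes from clusters gave 2 called members in smooth muscle and pericyte-like and 4 in surface epithelial-like cells, against 9 and 9, and a stroma-like UMI share of 0.0613%. Without control, 4 were called in blood endothelial-like cells against 7. The causes were not tested.

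Leaving out each library gave 43 to 52 calls for S and 55 to 56 for G2/M against non-cycling, 32 to 38 for S against G2/M, 13 to 16 for granulosa-like against stroma-like cells, 29 to 33 and 40 to 44 for stroma-like S and G2/M, 34 to 36 and 42 to 47 for both lists against the S and the G2/M list, and 58 to 64 over all classes (4 to 8 in blood endothelial-like, 6 to 9 in smooth muscle and pericyte-like, 8 to 12 in surface epithelial-like cells). Of 140 alternative treatment medians 9 left the medians of the members' 95% counting bounds, and values inside them can still differ by over 1.5 times (S-state doxorubicin / control 0.22 and 0.10 with no filter). With no filter on low values doxorubicin+AMH / AMH was 0.0897 in S and 0.0496 in G2/M granulosa-like cells, and AMH / control 0.0138 in G2/M. In non-cycling granulosa-like cells doxorubicin+AMH / AMH went from 0.29 to -0.00164 and AMH / control from -0.28 to 0.0109, so both changed sign. In the same cells doxorubicin / control went from 0.19 to 0.0247 and doxorubicin+AMH / doxorubicin from -0.15 to -0.00946. In non-cycling stroma-like cells doxorubicin / control was 0.0216 (0.0195 with classes from clusters). The S share of granulosa-like cells, 7.37%, was 14.5% at a threshold of 3 UMIs and 2.50% thinned to 1000 UMIs, and the G2/M share, 23.0%, was 31.9% and 15.5%.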

Other observations

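Only 12 cells passed the oocyte marker gate (control 3, doxorubicin 4, doxorubicin+AMH 0 and AMH 5), so they enter no comparison. They held 1301400 UMIs, with 169 of Hist1h2bc, 138 of Hist1h2ap, 83 of Hist1h4d and 32 of Hist1h2ae. Hist1h2aa had 16 of its 21 UMIs in all deposited cells in these 12 cells, and Hist3h2ba 26 of 365. H1foo, the oocyte linker histone that lies outside the clusters, had 1333 UMIs there.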
